A study of Mus musculus with 9 samples.

Results

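Ion channels are membrane proteins built from pore-forming subunits, often with auxiliary subunits beside them, that let potassium, sodium, calcium or chloride ions cross the membrane. Fibroblasts are not excitable cells, but their channels set the membrane potential, cell volume and calcium entry, and many subunit genes are best known from neurons and muscle. The subunits described here are the genes whose symbols belong to the voltage-gated potassium, sodium and calcium channels, the potassium channel relatives, the glycine, GABA-A and ionotropic glutamate receptors, and the TRP, HCN and CLC families. By this rule on symbols, 211 of the 23337 genes in the count table were members. They fall into 13 classes, and 2 further symbols match the rule without being subunits. Of these, Kcnq1ot1 is a non-coding RNA antisense to Kcnq1, and Trpc4ap is a protein associated with TRP channels.

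The cells were immortalised mouse embryonic fibroblasts (MEFs) without a functional Cebpb gene (Cebpb-ko), on a mixed C57BL/6 x 129 background. C/EBPβ is a transcription factor made as the long isoform LAP, which activates transcription, and the short isoform LIP, which lacks the activating part and can compete with LAP on DNA. All 3 lines share the knockout and were stably transfected with an empty vector (EV), with rat C/EBPβ-LAP or with rat C/EBPβ-LIP, under Zeocin selection. RNA sequencing gave 3 libraries per line and 9 in all. The methods do not say whether a line is a pool or 1 clone, and the labels do not say that the libraries of a line came from separate cultures, so the p-values measure the spread between these libraries only, which may be technical. A difference between lines cannot be told apart from a difference between the transfections that made them. The 3 comparisons ask which subunits differ with LAP, with LIP, and between the isoforms, and they share libraries with one another.

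The libraries held 24839139 to 33522082 counts on genes, and 3 counts stood for 0.0879 to 0.123 CPM, a count scaled to the library total. Counts on mouse Cebpb were between 684 and 1077 in all 9 libraries, EV included, so that this gene told apart neither the knockout nor the rat transgenes. Of 12 fibroblast markers, 11, 11 and 10 were expressed in EV, LAP and LIP, where expressed means at least 10 counts in every library of a line. Their summed level was 36370 to 40880 CPM in EV, 30360 to 44530 in LAP and 17580 to 31120 in LIP. All LIP libraries were below all EV libraries in this sum. Collagens weighed heavily in it, as mean Col1a1 was 8139 CPM in EV and 4578 in LIP, and Col1a2 7675 and 3593. Vim (log2 fold change −0.0673 ± 0.232 SE) and S100a4 (0.0234 ± 0.252 SE) differed little between LIP and EV. Of the single markers, 0 of the 12 passed the test in LIP against EV and 7 were lower by edgeR before adjustment (p under 0.05). Lum was at 0 counts in the 3 LIP libraries and at 45, 14 and 3 in EV, where it was not expressed by this limit either. None of the 9 neuron markers that the table holds was expressed in any line. Their summed level was 0.194 to 0.879 CPM, and Rbfox3 and Syt1 were listed at 0 throughout. Low counts of markers are given as listed and not as absence of the transcript, because some genes with several transcripts were listed very low (below). Summed markers of muscle (0.980 to 2.11 CPM), endothelium (1.54 to 3.64 CPM) and macrophages (3.54 to 8.91 CPM) were also low. The sums for glia (44.4 to 108.8 CPM) and epithelium (389.5 to 796.6 CPM) were higher and rested on Mbp (1172 to 3298 counts) and Krt8 (10764 to 24521 counts), while Gfap had at most 3 and Epcam at most 18 counts. None of the genes in these lists passed the test in any comparison, and their part in the results below was not tested. Rest, the silencer of neuronal genes in non-neuronal cells, lay between 42.5 and 68.3 CPM in all libraries and did not pass the test either.

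One subunit was switched between lines. Glra2 encodes the alpha 2 subunit of the glycine receptor, a chloride channel best known from the embryonic nervous system. Its counts were 272, 459 and 198 in LAP, against 0, 2 and 0 in EV and 1, 1 and 0 in LIP. Every LAP library was therefore far above every other library. In bulk RNA more cells with the transcript and more transcript per cell cannot be told apart. Kcnk1, a two-pore potassium channel of the leak type, had the next largest difference, with 2, 4 and 3 counts in LIP. The sequences before both starts are shown because these genes carry the largest differences and C/EBPβ is a DNA-binding protein. Both are 250 bases upstream of a RefSeq start on GRCm38.p6, read 5′ to 3′ on the gene's strand, and GENCODE places the starts of Kcnk1 downstream of its window. Both windows lie inside the gene's RefSeq interval given below, which begins farther upstream than the start used here.
Glra2, chrX:165327394-165327643, minus strand: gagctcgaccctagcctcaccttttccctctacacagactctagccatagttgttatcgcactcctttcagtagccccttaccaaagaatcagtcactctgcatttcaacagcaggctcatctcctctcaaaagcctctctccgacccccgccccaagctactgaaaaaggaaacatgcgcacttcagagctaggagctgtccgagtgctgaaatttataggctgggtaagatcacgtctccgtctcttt
Kcnk1, chr8:125994852-125995101, plus strand: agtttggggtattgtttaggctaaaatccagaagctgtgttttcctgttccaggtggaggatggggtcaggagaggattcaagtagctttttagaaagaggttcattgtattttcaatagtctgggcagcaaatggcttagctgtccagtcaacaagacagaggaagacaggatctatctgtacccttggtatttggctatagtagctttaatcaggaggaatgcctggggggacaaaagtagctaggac
A C/EBP-type motif, TTGCNNAA on either strand, would stand in capitals, and neither window holds one. Windows of Gabrb2, Gabra3 and Scn4a hold none either. The motif was in 9.57% of all 32817 windows of this length and in 8.25% of the 206 windows of 158 members. The core TGACG of the cAMP response element was in 17.7% of all windows and in 16.5% of the members' windows. Absence of these letters says nothing about binding elsewhere.

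Most subunits were listed under the limit for expressed. In EV 57 of the 211 members were expressed, 115 were off, meaning at most 3 counts in every library, and 39 lay between. In LAP 54 were expressed and 122 off, and in LIP 52 were expressed and 122 off. Over all genes 51.3% were expressed in EV, 51.0% in LAP and 50.1% in LIP, and 38.5% were off in each line (the difference was not tested). Across lines 48 members were expressed in all 3, 107 were off in all 3, and 31 of these were at 0 in all 9 libraries. A further 56 were low in at least 1 line or differed between lines.

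A low count was not always a sign of low expression. Some widely used genes with several curated RefSeq transcripts were listed very low, such as Tpm1 with 10 transcripts at 9 to 60 counts, whereas its single-transcript relative Tpm4 had 35159 to 51338. Gnas, with 12 transcripts, had 22 to 159 counts. These examples were chosen after their values were seen, and the cause was not tested. Over all genes in the table the median of the mean counts was not lower with more transcripts, at 15.8 for 12197 genes with 1 transcript, 74.4 for 7315 with 2 to 5 and 69.1 for 776 with 6 or more. Their upper quartiles were 1140, 888.6 and 622.6. Low counts of members with 2 or more curated transcripts are therefore given as listed and not as absence of the transcript, and their levels per kb may be understated. Of the 105 members with 1 curated transcript, 25 were expressed in all lines and 52 off in all, with 10 at 0 in every library. Of the other 106 members, 23 were expressed in all lines and 55 off in all, with 21 listed at 0. Among the latter were Kcnma1, the pore of the large-conductance calcium-activated potassium channel with 22 transcripts, Scn8a and Cacna1a. The test of a gene between lines compares counts made in the same way and does not need levels of different genes. Where a gene has several transcripts, these counts cannot tell a shift between them from a change in level. Glra2, Gabrb2 and Gabra3, called below, have 2 or more curated transcripts.

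**Figure D1:**
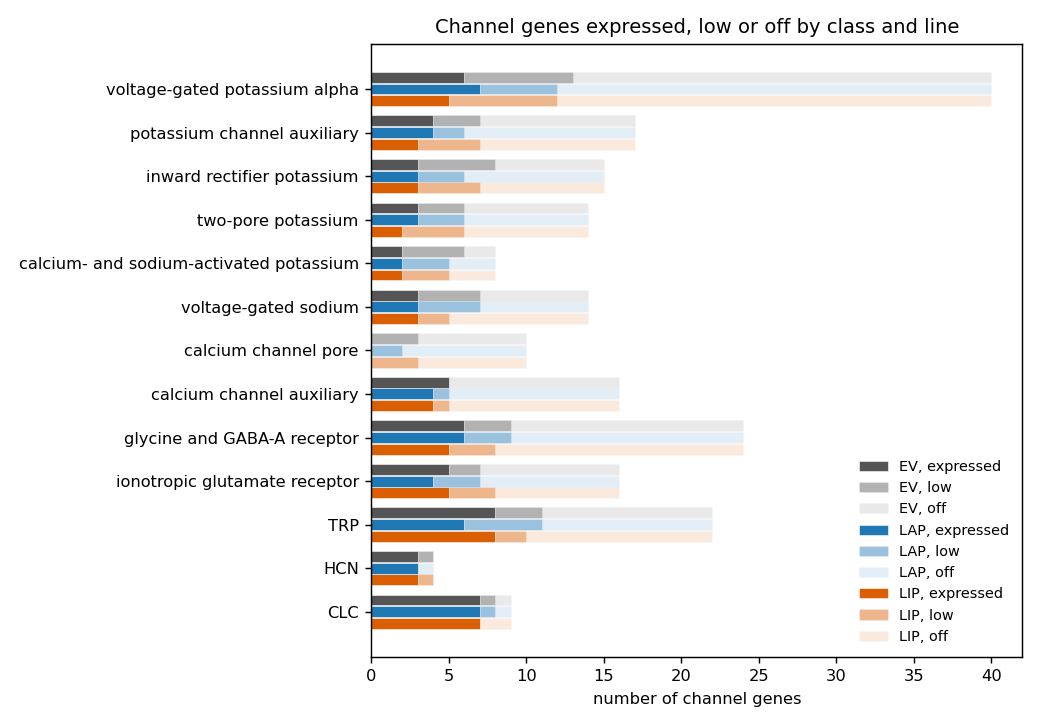
Number of channel genes (horizontal axis) in each of the 13 classes that were expressed (full colour), low (lighter) or off (pale) in EV (grey), LAP (blue) and LIP (orange). The number of expressed genes in a class differs between lines by at most 2, with 7 of 9 CLC genes expressed in each line and 0 of 10 calcium channel pores.

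The classes held different numbers of expressed genes. Of the 9 CLC genes, which encode chloride channels and endosomal or lysosomal chloride/proton exchangers, 7 were expressed in all 3 lines, and of the 4 HCN genes, the pacemaker channels, 3 were. By contrast, 0 of the 10 calcium channel pores reached the limit in any line. The highest of them, Cacna1g, a pore of the T-type channels with 4 curated transcripts, was listed at 3 to 10 counts. Of the 40 alpha subunits of voltage-gated potassium channels 5 were expressed in all lines, as were 5 of 24 glycine and GABA-A receptor genes, 4 of 16 glutamate receptor genes, 6 of 22 TRP genes and 3 of 14 sodium channel genes. The figures for potassium channels were 2 of 14 two-pore, 3 of 15 inward rectifier, 2 of 8 calcium- or sodium-activated and 3 of 17 auxiliary genes. Among auxiliary calcium channel subunits 3 of 16 were expressed in all lines.

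Levels between genes were compared per length, as CPM per kb of exon averaged over the 9 libraries. The highest was Kcnab1, a cytoplasmic beta subunit of voltage-gated potassium channels, at 38.3 CPM per kb and 2778 to 7150 counts. The highest alpha subunit was Kcnh2, a repolarising channel of the heart, at 1.14 CPM per kb. The exchanger genes Clcn4-2 (19.8 CPM per kb) and Clcn7 (17.3), of endosomes and lysosomes, followed, and Clcn2, a chloride channel of the plasma membrane, was at 8.77. The exons of Clcn2 overlap Fam131a on the other strand, which cannot be told apart in libraries that do not mark strand. The highest glutamate receptor genes were Gria3, an AMPA receptor subunit, at 16.01 CPM per kb, and Grik5, a kainate receptor subunit that needs another subunit to form a channel, at 11.0. The possible partners Grik1, Grik2 and Grik3 were at 0 to 5 counts, Grik1 and Grik2 with 3 curated transcripts each. Among NMDA receptor genes, Grin2d (0.510 CPM per kb) and Grin3b (0.388) were expressed in all lines. The exons of Grin2d overlap Gm45441 and those of Grin3b overlap Tmem259 on the other strand, so their counts are uncertain. Grin1, the obligatory subunit, was listed at 0 or 1 count with 8 curated transcripts.

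The leading potassium pore was Kcnk5, a two-pore channel opened by alkaline conditions, at 8.35 CPM per kb and with 524 to 1257 counts. Kcnj4 (0.870 CPM per kb) and Kcnj2 (0.722) led the inward rectifiers, which hold the resting potential. Of the GABA-A receptor genes Gabre was at 2.57 CPM per kb. The TRP genes, cation channels that respond to temperature, stretch or lipids, were led by Trpc2 at 3.10 and Trpm4, opened by calcium, at 2.10. Trpc2 shares exons with Xndc1 and Xntrpc, so its counts are uncertain. The sodium channel pores were led by Scn3a (0.214 CPM per kb). HCN genes were led by Hcn2 (1.08), calcium- and sodium-activated potassium channels by Kcnt2 (0.567) and Kcnn1 (0.339), and auxiliary calcium channel genes by Cacng7 (3.78) and Cacnb3 (1.33).

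**Figure D2:**
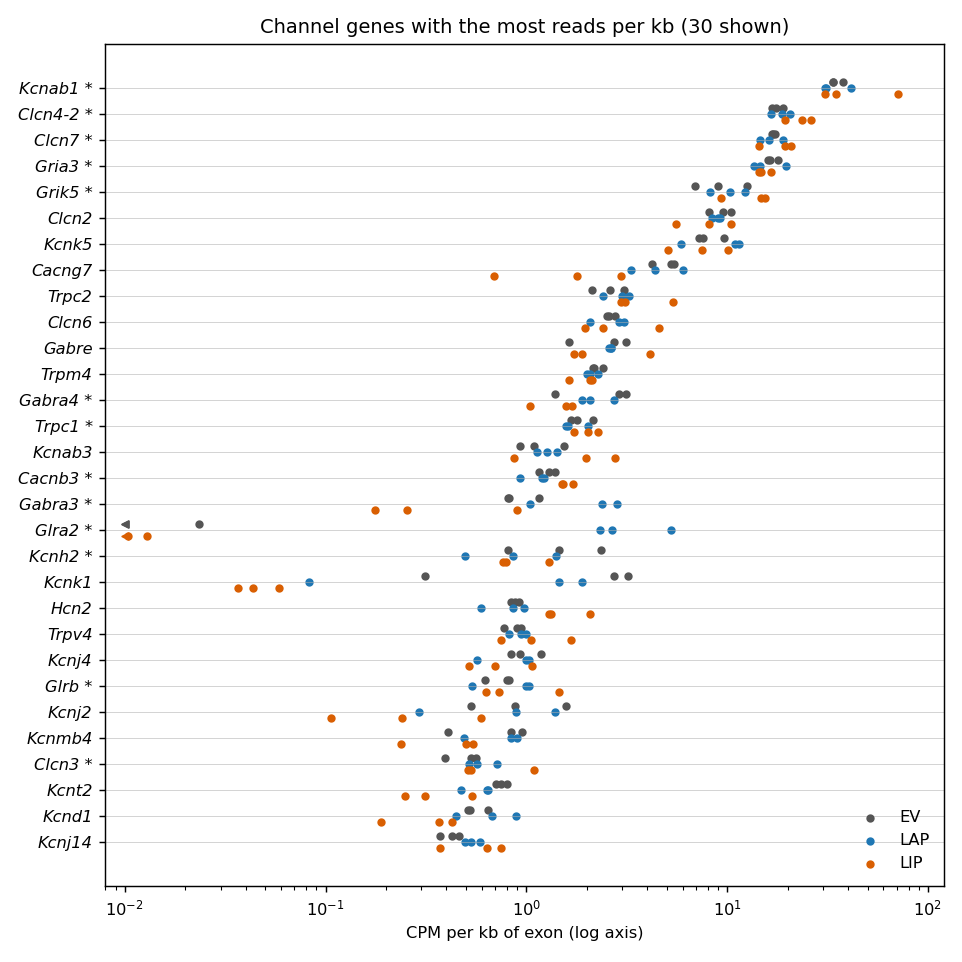
CPM per kb of exon (log axis) in each of the 9 libraries for 30 of the channel genes with the highest means, coloured by line. Asterisks mark genes with 2 or more curated transcripts, and arrowheads at the left mark values under the axis limit. The lines overlap for most genes, from Kcnab1 at 38.3 on average downwards. LAP stands apart for Glra2, and LIP for some others, such as Kcnk1, Cacng7 and Hcn2.

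Few members passed the test in LAP against EV. Of the 211 members 172 were tested, as the others had no count in these libraries, and of these 1 was higher (Glra2) and 0 were lower. The test was the quasi-likelihood test of edgeR, adjusted by Benjamini-Hochberg over all genes, with a threshold of 0.05. Over all 18156 genes tested 0.0606% passed, 0.0275% higher and 0.033% lower. Before adjustment, 6 members were higher and 2 lower at p under 0.05, where 1.93% of all genes were higher and 1.34% lower. The groups did not overlap for 13 members (7.56%), against 7.57% of all genes. For the 54 members that averaged at least 20 counts the median log2 fold change was 0.02, with 24 of them lower, beside a median of 0.00175 and 49.6% lower over all genes. No member went from expressed in EV to off in LAP, as 0.011% of all genes did.

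In LIP against EV 3 of 172 members were lower (among them Kcnk1 and Gabrb2) and 0 higher by the same edgeR test. The summed fibroblast markers were also lower in LIP, and their part in these calls was not tested. Of all genes 0.396% passed, 0.33% lower and 0.0659% higher. Before adjustment 13 members were lower and 7 higher at p under 0.05, beside 6.75% and 4.23% of all genes. Groups did not overlap for 26 members (15.1%), against 15.6% of all genes. The median log2 fold change of 52 members was 0.07, with 24 lower, beside 0.0153 and 47.6% lower over all genes. No member was switched between EV and LIP, where 0.033% of all genes went from expressed to off and 0.022% from off to expressed.

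In LIP against LAP 5 of 169 members were lower (among them Glra2, Kcnk1, Gabra3 and Scn4a) and 0 higher by the same test, where 1.05% of all genes passed, 0.837% lower and 0.209% higher. Before adjustment 12 members were lower and 5 higher at p under 0.05, beside 5.98% and 3.3% of all genes. Groups did not overlap for 26 members (15.4%), against 12.8% of all genes. The median over 52 members was 0.10, with 24 lower, beside 0.00628 and 49.0% lower over all genes. Of the 12 fibroblast markers 0 passed in this comparison and 7 were lower before adjustment, with a median log2 fold change of −0.79 over the 11 that averaged at least 20 counts, and their part in these calls was not tested. In this comparison, and in LAP against EV, libraries of the same number deviated together, and a fit with the replicate number as a block called more members. With that block 3 members were higher (Glra2, Kcng1 and Gabra3) and 1 lower (Gabrb2) in LAP against EV, where 0.297% of all genes passed. In LIP against LAP 8 were then lower and 2 higher, where 6.51% passed. The rise in members called with the block thus went with a rise over all genes.

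**Figure D3:**
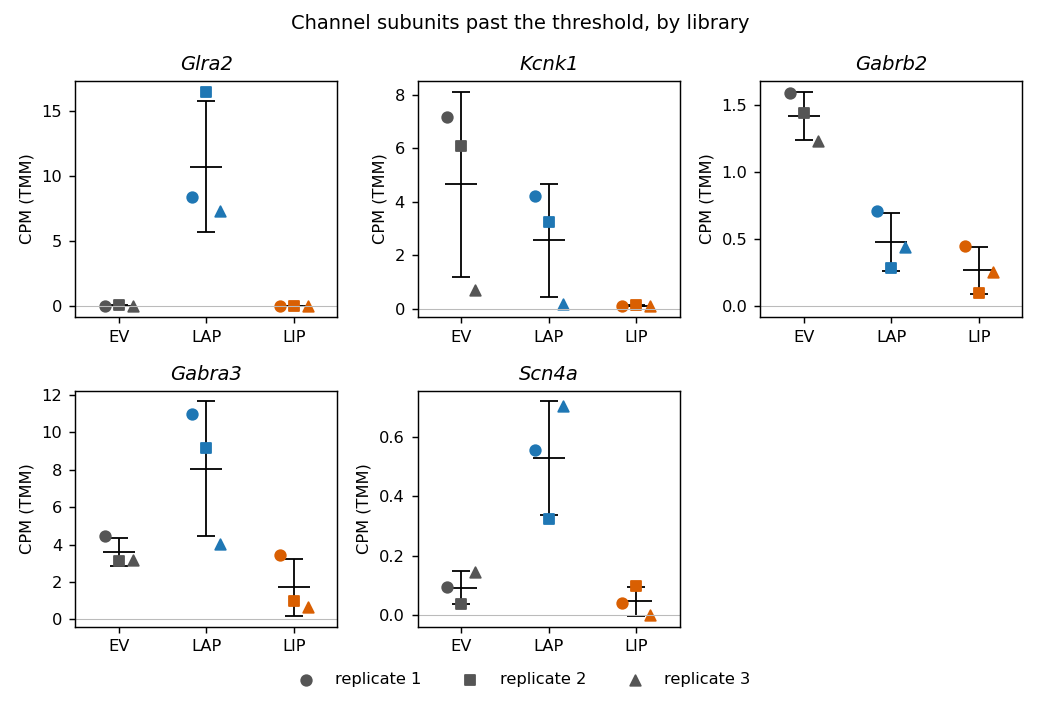
CPM with TMM scaling (vertical axes, a separate range per panel) of 5 members past the threshold in at least 1 comparison, by line. Symbols mark the replicate number, the long bar is the mean and the error bars are the SD of 3 libraries. Glra2 is high in LAP alone, and Kcnk1 is near 0 in LIP and in LAP replicate 3.

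Glycine and GABA-A receptors are the chloride channels of inhibitory synapses. Glra2 lies at chrX:165129017-165327867 on GRCm38.p6 and has 3 curated transcripts. Its level was 10.7 ± 5.02 CPM in LAP (SD, n = 3), 0.0246 ± 0.0426 in EV and 0.0245 ± 0.0216 in LIP. From summed counts of 929 against 2, LAP exceeded EV 497-fold (95% counting interval 137 to 4110) and LIP 457-fold (126 to 3780). These exact intervals cover counting error only. The adjusted p of edgeR was 1.10e-05 in LAP against EV and 1.23e-07 in LIP against LAP, and the call held without any single library in both. Both EV counts were in replicate 2, and without that library, which leaves EV at 0, the fitted log2 fold change went from 8.69 to 11.35. Among all 18156 genes tested 1 (0.00551%) went from off in EV to expressed in LAP, which was Glra2 itself. In LIP against LAP 0.0165% of genes, Glra2 among them, went from expressed in LAP to off in LIP, and 0.011% went the other way. Its neighbours within 500 kb, Mospd2 and Fancb, were expressed in all lines and did not pass the test (lowest adjusted p 0.763). Of the other glycine receptor alpha genes, Glra1 and Glra3, with 2 curated transcripts each, were listed at no more than 1 count and Glra4, with 1, at no more than 8. Glrb, the beta subunit that anchors the receptor at synapses, had 84, 69 and 68 counts in EV, 103, 91 and 46 in LAP and 57, 61 and 143 in LIP, and the lines overlapped.

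Gabrb2 encodes a beta subunit of the GABA-A receptor and lies at chr11:42419515-42632591. It had 51, 39 and 42 counts in EV, 23, 8 and 12 in LAP and 11, 3 and 8 in LIP. Every EV library was above every other library, whereas LAP and LIP overlapped. LIP was lower than EV by 5.35-fold (log2 fold change −2.42 ± 0.466 SE, edgeR adjusted p = 0.0495), a call that was lost without EV replicate 1 (0.0919), EV replicate 2 (0.171), EV replicate 3 (0.0587) or LIP replicate 2 (0.0886). This call was also lost with filterByExpr, edgeR's filter for genes of low count. In LAP against EV the log2 fold change was −1.54 ± 0.353 SE with an adjusted p of 0.343, and of 0.0347 with the replicate block. Gabra6, which lies in the same stretch of chromosome 11, was listed at 0 in all 9 libraries, with 3 curated transcripts.

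Gabra3 encodes the alpha 3 subunit and lies on the X chromosome beside Gabre and Gabrq. It had 143, 85 and 108 counts in EV, 356, 255 and 109 in LAP and 85, 30 and 21 in LIP. LAP replicates 1 and 2 were above all other libraries, and LAP replicate 3 was within the EV range. LIP was lower than LAP by 4.70-fold (log2 fold change −2.23 ± 0.488 SE, edgeR adjusted p = 0.0332), a call lost without LAP replicate 2 (0.208) or LIP replicate 2 (0.0988). Without LIP replicate 1 the log2 fold change was −3.26. In LAP against EV the log2 fold change was 1.16 ± 0.312 SE, with an adjusted p of 0.712, and of 0.0316 with the block. Its neighbour Gabre had 183 to 541 counts with a log2 fold change of −0.0034 ± 0.307 SE in LIP against LAP, and Gabrq was at 0 to 6 counts. Gabra4, with 9 curated transcripts, had 389, 355 and 199 counts in EV, 281, 320 and 215 in LAP and 174, 133 and 205 in LIP, and it passed the test in no comparison. Gabrb1, Gabra2 and Gabrg1, which neighbour it on chromosome 5, had at most 15, 2 and 1 counts.

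Two-pore potassium channels carry background potassium current. Kcnk1, on the plus strand at chr8:125993655-126030685 with 1 curated transcript, had 230, 165 and 24 counts in EV, 137, 90 and 5 in LAP and 2, 4 and 3 in LIP. All LIP libraries were below all others, and the replicates numbered 3 of EV and LAP were far below the other replicates of those lines. LIP was lower than EV by 42.8-fold (log2 fold change −5.42 ± 0.799 SE, edgeR adjusted p = 0.0152) and lower than LAP by 23.2-fold (−4.54 ± 0.786 SE, adjusted p = 0.00810). The first call was lost without LIP replicate 2 (0.0779) and the second without LAP replicate 2 (0.111) or LIP replicate 1 (0.0810). With filterByExpr the first call was lost as well. Without LAP replicate 1 the log2 fold change against LAP was −3.93. Summed counts of 419 against 9 gave a ratio of EV to LIP of 42.9 (95% counting interval 22.4 to 94.4). By the definition used Kcnk1 was low rather than off in LIP, because 1 library had 4 counts. With a limit of 5 counts, it was the only member switched between EV and LIP. None of its 8 neighbours within 500 kb passed the test in any comparison. Gm45875 overlaps its exons on the other strand, and the libraries do not mark strand.

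The other two-pore channels did not pass the test. Kcnk5 had 1046, 693 and 841 counts in EV, 1257, 553 and 998 in LAP and 837, 524 and 783 in LIP, with overlap throughout. Kcnk10, a channel that responds to stretch and lipids, had 13, 6 and 11 counts in EV, 25, 16 and 12 in LAP and 14, 3 and 2 in LIP (log2 fold change −1.34 ± 0.643 SE in LIP against LAP, adjusted p = 0.546). Kcnk6, a relative of Kcnk1, had 11 to 40 counts.

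Among inward rectifiers Kcnj2, the strong rectifier that stabilises the resting potential, had 277, 130 and 99 counts in EV, 245, 134 and 43 in LAP and 79, 40 and 18 in LIP. Replicate 1 was the highest and replicate 3 the lowest library in each line. The log2 fold change was −1.69 ± 0.528 SE in LIP against EV (edgeR adjusted p = 0.228) and −1.45 ± 0.525 SE in LIP against LAP (adjusted p = 0.303). With the replicate block the adjusted p was 4.21e-05 in LIP against LAP.

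Of the voltage-gated potassium channel genes, 0 of 35 tested passed edgeR's test in any comparison without the block. Before adjustment (p under 0.05) 1 was higher and 0 lower in LAP against EV. In LIP against EV 1 was higher and 1 lower, and in LIP against LAP 0 were higher and 1 lower. These shares were 2.86%, 5.71% and 2.86%, beside 3.27%, 11.0% and 9.28% of all genes. Kcng1, a modulatory subunit that forms no channel alone, had 10, 9 and 8 counts in EV, 56, 27 and 17 in LAP and 22, 18 and 4 in LIP. All LAP libraries were above all EV libraries, with a log2 fold change of 1.92 ± 0.428 SE and an adjusted p of 0.305, or 0.0316 with the block. Kcnd1, an alpha subunit of the rapidly inactivating A-type current, had 109, 73 and 95 counts in EV, 152, 99 and 64 in LAP and 55, 59 and 31 in LIP. In LIP against LAP its log2 fold change was −1.02 ± 0.374 SE with an adjusted p of 0.309, or 0.00890 with the block. For Kcnh2 the LAP against EV log2 fold change was −0.75 ± 0.379 SE (adjusted p = 0.918). The sodium-activated Kcnt1 had 8, 6 and 9 counts in EV, 5, 3 and 2 in LAP and 5, 31 and 15 in LIP, and its adjusted p in LIP against LAP was 0.122, or 0.0209 with the block.

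**Figure D4:**
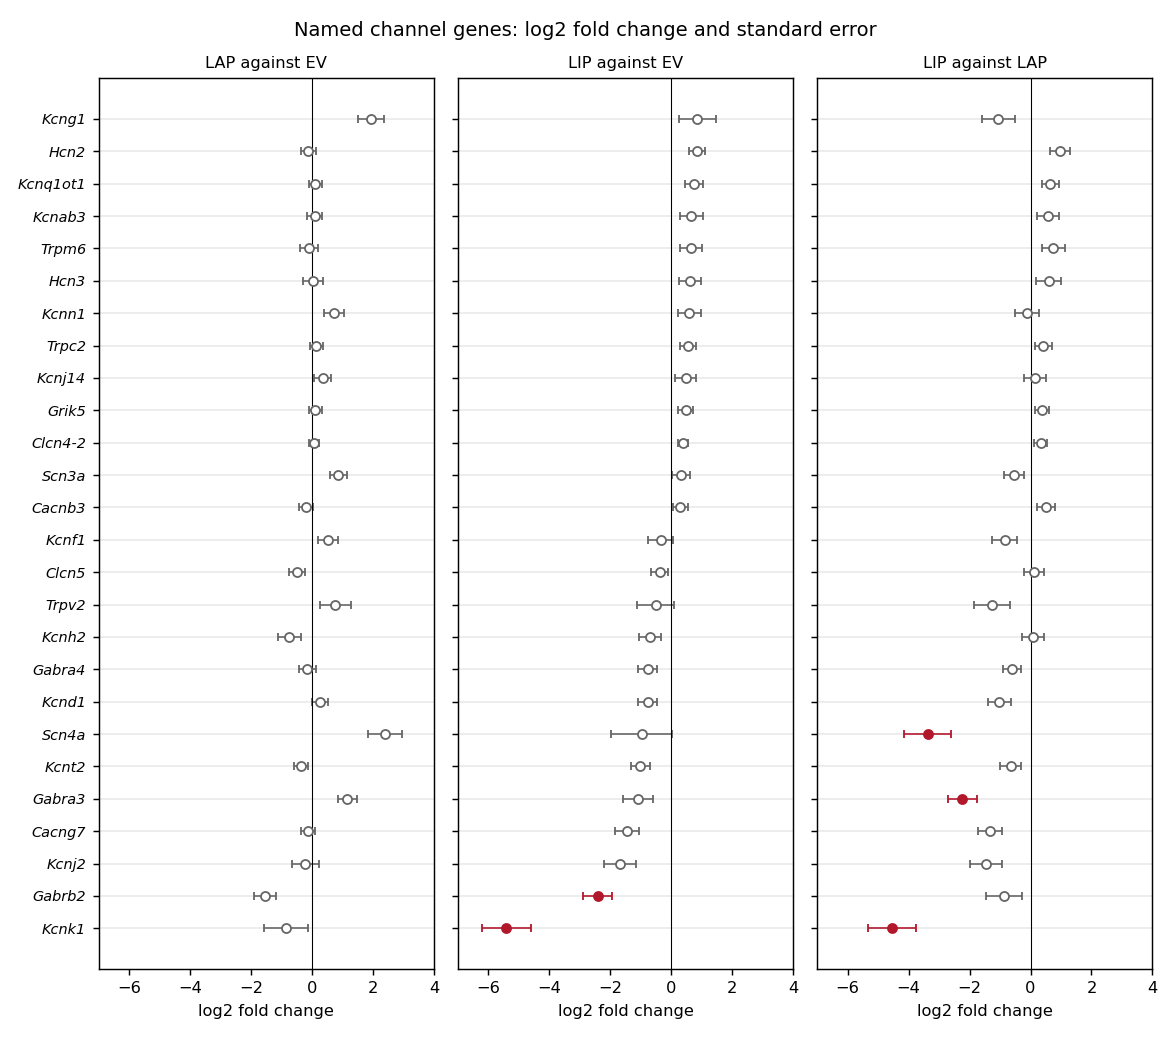
Log2 fold change (horizontal axis, 1 panel per comparison) with its standard error for 26 named channel genes, ordered by LIP against EV. Filled red points passed the threshold without the replicate block, and Glra2 is left out because its values lie beyond the axis. Kcnk1 lies farthest from 0, at −5.42 in LIP against EV.

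Sodium channel pores open on depolarisation and drive action potentials. Scn4a, the pore of skeletal muscle, had 3, 1 and 5 counts in EV, 18, 9 and 19 in LAP and 1, 3 and 0 in LIP. All LAP libraries were above all others, at 0.527 ± 0.191 CPM (SD, n = 3), although LAP replicate 2 fell short of 10 counts. LIP was lower than LAP with a log2 fold change of −3.37 ± 0.768 SE (edgeR adjusted p = 0.0391), and summed counts of 46 against 4 gave a ratio of 11.3 (95% counting interval 4.14 to 43.3). The call was lost without LAP replicate 1 (0.0533), LAP replicate 2 (0.129) or LIP replicate 1 (0.126). The log2 fold change was −4.55 without LIP replicate 2 and −2.78 without LIP replicate 3. The summed muscle markers were 1.51 to 1.78 CPM in LAP and 0.995 to 2.11 in EV, with Myod1, Myh6 and Tnnt2 listed at 0 in all libraries. Des, another muscle marker, was expressed in every line. It had 26, 28 and 63 counts in EV, 42, 39 and 43 in LAP and 19, 32 and 57 in LIP. Scn3a, a pore of the embryonic brain, had 41, 45 and 56 counts in EV, 80, 104 and 59 in LAP and 49, 62 and 51 in LIP. All LAP libraries exceeded all EV libraries, with a log2 fold change of 0.86 ± 0.272 SE and an adjusted p of 0.918.

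HCN channels open on hyperpolarisation. Hcn2 had 94, 76 and 91 counts in EV, 89, 53 and 84 in LAP and 101, 129 and 205 in LIP. LIP was above both other lines in every library, with a log2 fold change of 0.84 ± 0.269 SE against EV (edgeR adjusted p = 0.243) and 0.96 ± 0.330 SE against LAP (0.265, or 0.00921 with the block). Hcn3, which shares exon sequence with Pklr on the other strand, had 16 to 47 counts.

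The calcium channel auxiliary gene Cacng7, a subunit that also traffics AMPA receptors, had 387, 252 and 396 counts in EV, 432, 268 and 199 in LAP and 161, 121 and 47 in LIP. All LIP libraries were below all others. The log2 fold change was −1.46 ± 0.394 SE against EV (edgeR adjusted p = 0.154) and −1.32 ± 0.398 SE against LAP (adjusted p = 0.159, or 2.49e-06 with the block). Gria3, whose product such subunits serve, had 2870, 2654 and 2976 counts in EV, 3459, 2067 and 2138 in LAP and 1970, 2399 and 2793 in LIP. Its log2 fold change was −0.14 ± 0.146 SE in LIP against EV, with overlap.

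By edgeR's test 0 of 8 CLC genes passed in any comparison, and 0 of the 19 to 21 TRP genes tested. Before adjustment, at p under 0.05, 0 of either class differed in LAP against EV. In LIP against EV 1 CLC gene was higher, and 1 TRP gene was higher and 1 lower. In LIP against LAP 1 TRP gene was higher and 3 lower. The shares were 12.5% of CLC and 9.52% of TRP genes in LIP against EV, and 21.1% of TRP genes in LIP against LAP. Over all genes they were 3.27% in LAP against EV, 11.0% in LIP against EV and 9.28% in LIP against LAP. Clcn4-2 had 2557, 2246 and 3079 counts in EV, 2551, 2488 and 2648 in LAP and 2271, 3423 and 3868 in LIP. Its log2 fold change in LIP against EV was 0.38 ± 0.159 SE (adjusted p = 0.399). Trpm7, a magnesium-permeable channel fused to a kinase, had 59 to 82 counts in all libraries, and Trpv4, opened by swelling and warmth, had 59 to 165. Kcnab1, the highest member, had 3530, 2964 and 4193 counts in EV, 3231, 2803 and 3614 in LAP and 2778, 3028 and 7150 in LIP. LIP replicate 3 was well above the other 8 libraries, and the log2 fold change in LIP against EV was 0.38 ± 0.263 SE (adjusted p = 0.671). The non-coding RNA Kcnq1ot1 had 742, 1903 and 947 counts in LIP and 435 to 1070 in EV and LAP (adjusted p = 0.374 in LIP against EV).

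Other channels and pumps were looked at as a comparison list, of which 66 of 72 symbols were in the table and 62 were tested. In LAP against EV and in LIP against EV 0 of the 62 passed edgeR's test. Before adjustment, at p under 0.05, 1 was lower and 3 higher in the first, and 7 were lower and 3 higher in the second. In LIP against LAP 2 passed, both lower, and before adjustment 3 were lower and 4 higher. Over all genes 0.0606% passed in LAP against EV, 0.396% in LIP against EV and 1.05% in LIP against LAP. Before adjustment 1.34%, 6.75% and 5.98% of all genes were lower in these comparisons, and 1.93%, 4.23% and 3.3% higher. P2rx3, an ATP-gated cation channel, had 271, 204 and 698 counts in EV, 382, 500 and 205 in LAP and 76, 129 and 136 in LIP (log2 fold change −1.64 ± 0.319 SE, adjusted p = 0.0185). Lrrc8e, a subunit of the volume-regulated anion channel, had 75, 74 and 86 counts in EV, 121, 102 and 41 in LAP and 27, 29 and 13 in LIP (−1.84 ± 0.431 SE, adjusted p = 0.0459). The median log2 fold change of the list in LIP against EV was −0.03 over the 42 genes that averaged at least 20 counts.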

How the data were processed

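Total RNA of Cebpb-ko MEFs with EV, LAP or LIP was extracted (RNeasy Plus Mini), made into TruSeq v2 libraries, which do not mark strand, and sequenced. The authors deposited raw counts per gene symbol, made with bcl2fastq 1.8.3, TopHat 1.4.1 and HTSeq 0.5.4 on mm10 with a RefSeq annotation, and not normalized. The handling of reads that fit several genes or transcripts is not given in the sources used here. The table has 9 library columns, of which 0 were unused.

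Each comparison used its 6 libraries and every gene with at least 1 count. Counts were scaled by TMM and tested with the quasi-likelihood test of edgeR 4.0.16 in R 4.3.3, without covariates, and p-values were adjusted by Benjamini-Hochberg over all genes. SE was taken as the size of the log2 fold change over the root of F. With 3 against 3 libraries a two-sided exact permutation test of 1 gene cannot go below p = 0.1, and was not used for calls. Tests were tried on simulated data. Positions and transcript numbers come from RefSeq on GRCm38.p6, where all 211 members were found. Exon lengths, over the merged exons of a gene, and exon overlaps come from the GENCODE basic annotation. Levels per kb therefore divide counts made on RefSeq by GENCODE lengths. Figures used matplotlib 3.10.9 in Python 3.11.15.

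Replicate numbers 1 to 3 come from the labels. Deviations of same-numbered libraries from their group means correlated over genes at 0.210 to 0.532 in LAP against EV. In LIP against LAP the correlations were 0.418 to 0.563. All were above 0.1, and these libraries were taken as paired in the fit with the block. Calls given without mention of the block come from the fit without it, which leaves this pairing out. In LIP against EV the correlations lay between -0.131 and 0.290, and the libraries were not taken as paired. A pairing shared by all 3 lines would hold there too, which these values do not show.

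The members, lists, markers and alternatives were chosen with earlier results of these data known. Named are members past the threshold or switched, up to 8 higher and 8 lower per comparison with the smallest p and a mean of at least 20 counts, and the 2 highest per kb in each class. Partner subunits and neighbours, and Kcnt1, Trpm7, Trpv4, Cacna1g, Kcnma1, Scn8a, Cacna1a and Gabrq were added after their values were seen. Some channel genes are counted in the totals but not reported here.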

Additional observations from a re-analysis of the deposited data

Results flagged for a closer look

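In 4 channel genes described here the difference between the lines expressing the 2 isoforms, LIP against LAP, passed edgeR's test of that difference itself. Not all of these calls held with total counts alone or with filterByExpr, as given in the next section. The log2 fold changes were −8.57 ± 0.588 SE for Glra2, −4.54 ± 0.786 for Kcnk1, −3.37 ± 0.768 for Scn4a and −2.23 ± 0.488 for Gabra3. All 3 LIP libraries were below all 3 LAP libraries in each of them. For Kcnk1, LAP replicate 3 had 5 counts and the highest LIP library had 4.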

How the results depend on the processing

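No result past the threshold changed direction under the alternatives run. Of the alternative values of single genes, 587 kept their side of the threshold, 19 passed it only under the alternative and 29 no longer passed. In LAP against EV 1 member was higher and 0 lower. The edgeR exact test and the replicate block each gave 3 higher and 1 lower, where 0.297% of all genes passed with the block. Leaving out 1 library gave 1 to 3 higher (3 without LAP replicate 3). In LIP against EV the 3 lower members became 1 with DESeq2's size factors or with total counts alone, 0 with filterByExpr and 5 with the replicate block, where 2.57% of all genes passed. Leaving out 1 library gave 0 to 5, with 0 without LIP replicate 2, 1 without EV replicate 2 and 5 without LIP replicate 1 or 3. In LIP against LAP the 5 lower members became 2 with total counts alone, 1 with filterByExpr and 8 with the block. The block also gave 2 higher, where 6.51% of all genes passed. Leaving out 1 library gave 1 to 7 lower and 0 to 1 higher, with 1 lower without LAP replicate 2 and 1 higher without LIP replicate 3. Shares of all genes under the alternatives other than the block are not given here, so these shifts are not shown to be particular to the members. The cause of the shifts was not tested. With DESeq2's Wald test, Cacng7 passed in LIP against EV (adjusted p = 0.0325).

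The replicate numbers are not shown to pair LIP and EV libraries, so the block there is a hint only, with Cacng7 and Kcnj2 lower beside the 3 members called without it. At a limit of at least 1 CPM 37 members were expressed in EV, against 57. With off meaning 0 counts, 0 members were switched between LAP and EV or between LIP and LAP, since Glra2 had 2 counts in EV replicate 2 and 1 count each in LIP replicates 1 and 2. With off meaning at most 5 counts, or without LIP replicate 2, 1 member (Kcnk1) was switched in LIP against EV, so that leaving out 1 library gave 0 to 1. In LIP against LAP it gave 1 to 2, adding Scn4a without LAP replicate 2 and Kcnk10 without LIP replicate 1. The median over members in LAP against EV was −0.0113 with total counts alone.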
